A study of Homo sapiens with 6 samples.

Results

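Long intergenic noncoding RNAs were examined in H9 cells, as the genes whose symbol consists of LINC and a number and which had at least 120 counts summed over all 6 libraries. Of 61541 Ensembl genes, 2155 carried such a name, 876 of these were detected with 1 count or more, and 186 reached the sum and form the set described here. Members were thus selected on their measured counts. The sum was taken over both groups, so a gene high in only 1 group could enter through it. H9 is an established cell line of cutaneous T-cell lymphoma, labelled wild type. The cells received the vehicle DMSO (3 libraries) or AZD4573, an inhibitor of the kinase CDK9, for 4 h (3 libraries). The figure legends of the study give the dose as 50 nM, while its discussion mentions a longer exposure. The question behind the comparison is what CDK9 inhibition does to the transcriptome of a T-cell lymphoma that does not depend on MCL-1.

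Long intergenic noncoding RNAs are transcribed by RNA polymerase II from their own promoters, are spliced and mostly polyadenylated, and encode no long protein. Many are present at few copies per cell, stay in the nucleus and turn over quickly, and some regulate neighbouring genes or bind proteins. CDK9, with cyclin T1, forms P-TEFb, which releases RNA polymerase II from its pause near the start of genes, coding and noncoding alike.

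Total counts per library ranged from 70367303 to 76571157 with DMSO and from 52101868 to 63795185 with AZD4573, so that 0 counts of a gene allow between 0.0392 and 0.0576 CPM (a library's counts divided by its total and scaled up to a common size), where the limit is set at 3 counts and covers counting error only. The labels number the libraries of a group 1 to 3 without saying that they came from separate cultures, so p-values measure the spread between these libraries, which may be technical. The labels describe poly(A) selection and the supplemental methods describe rRNA depletion. RSEM's default setting does not use the strand of a read, so reads of a gene and of an overlapping antisense gene cannot be told apart here. Of 10 T-cell markers, 9 reached 1 CPM and CD2 stayed at or below 0.17 CPM. None of 5 myeloid markers reached 1 CPM, and FCGR3A was at 0. The B-cell marker CD79A (57.2 to 94.2 CPM) and the epithelial marker EPCAM (126 to 171 CPM) were also present. Because the samples are bulk RNA, fewer cells of a type and less RNA per cell cannot be told apart. The mRNAs of the mitochondrial genome, which another polymerase transcribes, took 3.04 to 3.22% of the counts with DMSO and 4.67 to 4.98% with AZD4573. For this reason fold changes are also given with the libraries scaled to the 13 mitochondrial mRNAs (mitochondrial scaling), which shifted the median over all 17678 genes tested from 0.03 to -0.71 on the log2 scale.

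The 186 members were low-abundance transcripts spread over 23 chromosomes. Their mean level over the 6 libraries ranged from 0.327 to 40.5 CPM, with a median of 1.45 CPM beside 11.6 CPM for all genes tested. Above 10 CPM lay 24 members and below 1 CPM lay 75. In GENCODE release 44, 173 members were annotated as lncRNA, 11 as transcribed pseudogenes, and 2 as protein-coding, LINC00634 (now SMIM45) and LINC00672 (now LASP1NB). There, 171 kept their name and 9 of the 15 renamed ones were named after a divergent promoter. For 8 members, a newer gene model that is not in the count table covered at least 50% of the exons, and no length was used for these. The other 178 had a median exon length of 3786 bases (662 to 33198) and a median of 4 exons in the transcript with the most exons. The members' summed share of a library was 0.0726% ± 0.00122 (SD, n = 3) with DMSO. It was 0.092% ± 0.000839 (SD, n = 3) in the AZD4573 group.

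All 186 members passed the filter on low counts. With DMSO 3 members stayed under 10 counts in every library, and with AZD4573 none did. A member was called when its fold change was 1.5 or more and the p of the quasi-likelihood test in edgeR, adjusted by the Benjamini-Hochberg method across the whole table, was under 0.05. Adjusted p-values below come from this edgeR fit. Those given for a library left out come from the same fit repeated on the remaining libraries. By this rule 46.4% of all genes tested were called in either direction. Among the members 76 (40.9%) rose, where 22.7% of all genes tested did. With the same rule 21 members (11.3%) fell, where 23.7% of all genes tested did. The remaining 89 were not called. The fold change reached 4 for 18 of the members that rose (6.62% of all genes tested were called higher at this size) and for 1 of those that fell (2.9% of all genes tested lower). The median rise was 2.57-fold and the median fall 1.81-fold.

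Levels of the members in the AZD4573 libraries lay entirely above those in the DMSO libraries for 94 members, where this held for 34.2% of all genes tested. They lay entirely below for 30 members, where it held for 42.9%. All 21 members that fell and 73 of the 76 that rose were separated in this way. The 3 members that rose with overlapping groups, LINC02288, LINC02475 and LINC02696, are named here after their values were seen. The adjusted p stayed under 0.05 with each library left out in turn for 17 of the members that fell and 70 of those that rose. LINC02475 and LINC02696 were among those that lost it, with an adjusted p of 0.187 without AZD4573 library 3 and of 0.248 without AZD4573 library 2.

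**Figure D1:**
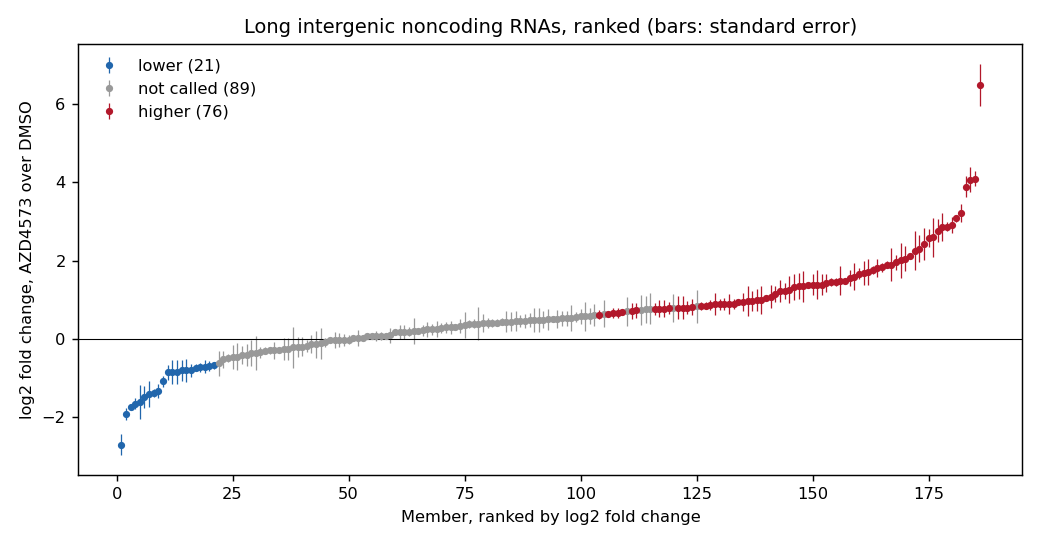
Log2 fold change (AZD4573 over DMSO, TMM scaling) of each of the 186 members in ascending order, with bars for the standard error. The 21 members that fell reach down to -2.71, and the 76 that rose reach up to 6.50.

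The median log2 fold change of the members was 0.50 with TMM scaling and -0.23 with mitochondrial scaling. Protein-coding genes had a median of -0.07 with TMM (27.2% lower, 18.2% higher, n = 13421). Other lncRNA genes had a median of 0.45 (13% lower, 38.8% higher, n = 2669), close to that of the members. Antisense lncRNA genes (-AS in the symbol) had a median of 0.42 (n = 577), and divergent ones (-DT) a median of 0.48 (n = 252). The values of the members thus lay beside those of lncRNA genes of other names, and no test of a difference between these groups was made.

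With mitochondrial scaling, 57 members were lower and 36 higher, where 53.4% and 10.0% of all genes tested were. This scaling lowers the log2 fold change of every gene by nearly the same amount. That all 21 members that fell with TMM were also lower with it follows from the shift. Of the 76 that rose, 36 were also higher with it, and 36 members not called with TMM became lower. That 0 of the 76 were lower follows from the shift as well. Rises smaller than the shift between the scalings therefore change sign with the scaling.

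**Figure D2:**
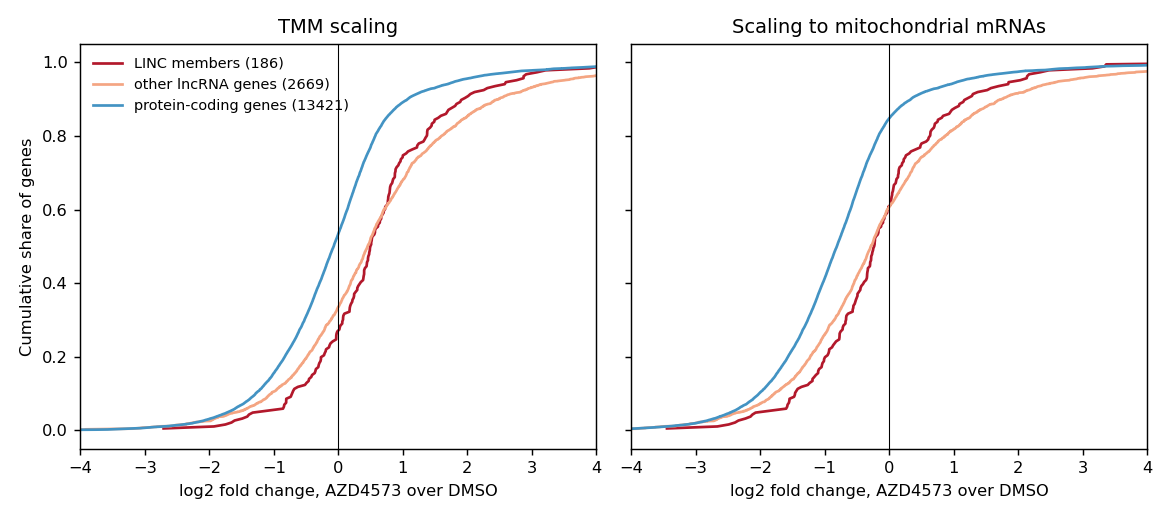
Cumulative share of genes (y axis) against log2 fold change (x axis, shown from -4 to 4) for the 186 members, 2669 other lncRNA genes and 13421 protein-coding genes, with TMM scaling on the left and mitochondrial scaling on the right. The members lie near the other lncRNA genes in both panels, with a median of 0.50 on the left and -0.23 on the right.

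Among members with at least 1 CPM in the higher group, LINC01772 and LINC00242 had the largest rises, and their order turned with the libraries used (3.88 and 4.66 on the log2 scale without DMSO library 3). LINC01772 (ENSG00000226029) lies on chromosome 1 of GRCh38 from 16460948 to 16468481, has up to 2 exons and starts 0.87 kb past the end of NECAP2, an adaptor of clathrin-mediated endocytosis. It was at 0.392, 0.369 and 0.227 CPM in the DMSO libraries and at 5.37, 5.18 and 5.39 CPM in the AZD4573 libraries. All AZD4573 libraries lay above all DMSO libraries, and the rise was 17.2-fold (log2 fold change 4.10, standard error 0.186, adjusted p = 4e-10).

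LINC00242 (ENSG00000229214, chromosome 6 from 169788790 to 169799549) was at 0.0784, 0.128 and 0.269 CPM with DMSO and at 2.28, 2.25 and 2.90 CPM with AZD4573. The lowest AZD4573 library stood well above the highest DMSO library, and the rise was 16.8-fold (log2 fold change 4.07, standard error 0.318, adjusted p = 6.3e-08). Of its exon bases, 33.3% are shared with LINC00574 on the opposite strand, which rose by less (log2 fold change 0.77, adjusted p = 0.00582), and 0.03 with mitochondrial scaling. LINC00880 (ENSG00000243629), on chromosome 3 near the cyclin gene CCNL1, was at 0.131, 0.156 and 0.128 CPM with DMSO and at 1.63, 1.97 and 2.16 CPM with AZD4573. Its groups were far apart, with a rise of 14.8-fold (log2 fold change 3.89, adjusted p = 1.8e-08), but 65.1% of its exon bases are shared with LINC02029 on the opposite strand. LINC02029 had a log2 fold change of 7.97 on 81 counts in all.

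LINC01126 (ENSG00000279873) is a gene of 1 exon on chromosome 2 from 43227210 to 43228855, which starts 0.604 kb from ZFP36L2 and points away from it. ZFP36L2 encodes a protein that binds AU-rich elements and promotes mRNA decay. LINC01126 was at 0.287, 0.199 and 0.241 CPM with DMSO and at 2.03, 2.10 and 2.19 CPM with AZD4573. The AZD4573 libraries lay close together and above all DMSO libraries, and the rise was 9.26-fold (log2 fold change 3.21, standard error 0.231, adjusted p = 2.8e-08). ZFP36L2 had a log2 fold change of -0.28 (adjusted p = 0.00186), below the fold change required for a call.

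RefSeq promoter windows of LINC00242 and LINC01126 are shown because these were the largest rises with a RefSeq start within 1 kb of the start in GENCODE. They run from 250 bases before to 50 bases after the start in RefSeq (GRCh38.p14), at chr6:169798776-169799075 on the minus strand and chr2:43226961-43227260 on the plus strand. The RefSeq start of LINC00242 lies 724 bases from the start in GENCODE, and its window lies wholly inside the gene as GENCODE annotates it. Capitals mark the searched motifs, as such or as the reverse complement where they lie on the other strand. These are CCAAT in the first sequence, on the other strand, and GGGCGG in the second, on either strand.
LINC00242: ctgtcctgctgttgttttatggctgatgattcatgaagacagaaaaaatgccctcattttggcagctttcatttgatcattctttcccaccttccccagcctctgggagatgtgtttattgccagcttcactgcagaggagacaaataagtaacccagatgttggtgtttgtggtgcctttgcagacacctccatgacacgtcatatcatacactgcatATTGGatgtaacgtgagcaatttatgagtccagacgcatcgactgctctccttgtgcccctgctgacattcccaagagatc
LINC01126: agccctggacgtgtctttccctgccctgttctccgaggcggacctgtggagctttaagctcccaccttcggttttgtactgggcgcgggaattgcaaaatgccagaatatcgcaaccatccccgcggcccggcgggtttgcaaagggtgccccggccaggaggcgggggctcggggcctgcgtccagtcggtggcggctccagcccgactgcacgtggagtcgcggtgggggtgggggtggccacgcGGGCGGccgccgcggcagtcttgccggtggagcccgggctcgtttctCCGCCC

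LINC00641 (ENSG00000258441), which starts 2.24 kb past the end of HNRNPC, the gene of a nuclear RNA-binding protein, on chromosome 14, combined a large rise with a high level. It was at 4.94, 6.65 and 6.11 CPM with DMSO and at 45.3, 45.1 and 48.4 CPM with AZD4573. The groups were widely separated, and the rise was 8.45-fold (log2 fold change 3.08, standard error 0.0884, adjusted p = 1.9e-11). HNRNPC itself went from 1170 ± 70.1 to 1420 ± 37.4 CPM (SD, n = 3 each) and its log2 fold change was 0.39.

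LINC00672 (ENSG00000263874), reported to act with p53 in repressing LASP1, lies 3.4 kb past LASP1, the gene of an actin-binding protein, on chromosome 17. It was at 1.92, 2.64 and 2.28 CPM with DMSO and at 15, 15 and 16.5 CPM with AZD4573. All AZD4573 libraries were higher than all DMSO libraries, and the rise was 7.31-fold (log2 fold change 2.87, standard error 0.111, adjusted p = 1.2e-10). The log2 fold change of LASP1 was 0.02 (adjusted p = 0.752).

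LINC01393 (ENSG00000225535, chromosome 7) was at 0.483, 0.412 and 0.340 CPM with DMSO and at 2.51, 3.03 and 3.15 CPM with AZD4573. LINC01341 (ENSG00000227953, chromosome 1) was at 0.144, 0.242 and 0.198 CPM with DMSO and at 1.44, 1.11 and 1.16 CPM with AZD4573. In both genes the groups did not overlap, with rises of 7.53-fold for LINC01393 (adjusted p = 2.4e-08) and 6.79-fold for LINC01341 (adjusted p = 1.4e-06).

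LINC01588 (ENSG00000214900, chromosome 14) was at 0.300, 0.355 and 0.298 CPM with DMSO and at 2, 1.80 and 1.54 CPM with AZD4573. LINC00174 (ENSG00000179406, chromosome 7) was at 4.85, 5.10 and 5.17 CPM with DMSO and at 19.5, 19.8 and 21.4 CPM with AZD4573. In neither gene did the groups overlap, and the rises were 5.97-fold for LINC01588 (adjusted p = 2.7e-07) and 4.32-fold for LINC00174 (adjusted p = 7.9e-11). With mitochondrial scaling the 10 members of these paragraphs kept log2 fold changes above 0, from 1.37 for LINC00174 to 3.36 for LINC01772.

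**Figure D3:**
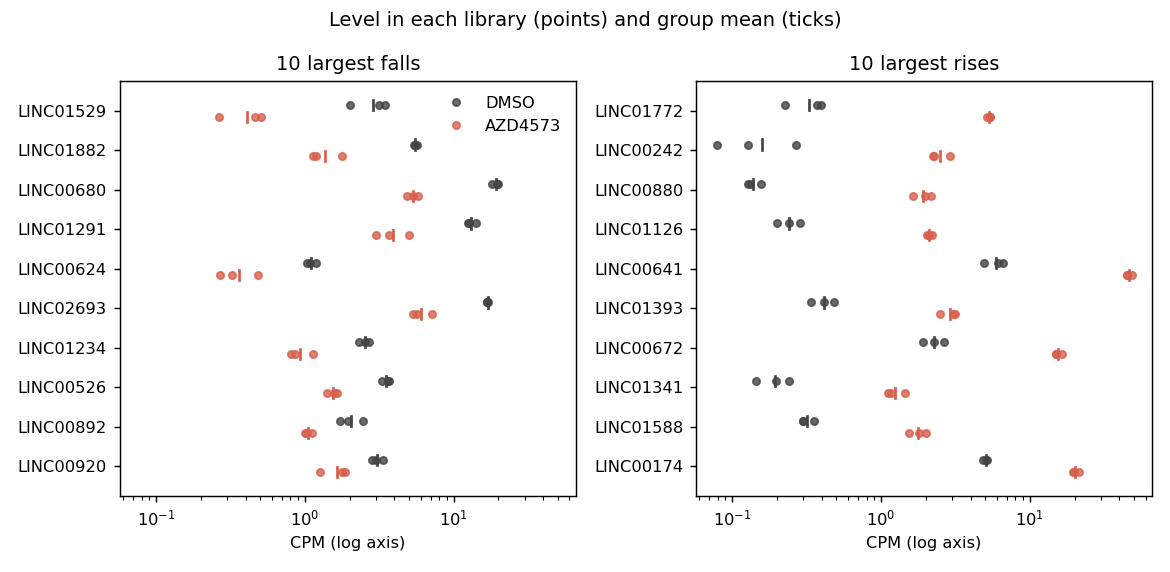
Level in CPM (log axis) of the 10 largest falls (left) and 10 largest rises (right) among members with at least 1 CPM in the higher group, with a point per library and a tick for the group mean (n = 3). In each member the DMSO and AZD4573 libraries do not overlap, for example 2.01 to 3.45 against 0.266 to 0.505 CPM in LINC01529 and 0.227 to 0.392 against 5.18 to 5.39 CPM in LINC01772.

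The largest rise of any member was below 1 CPM and is named after its value was seen. LINC02631 (ENSG00000237772, chromosome 2 from 138601599 to 138617469) had 0, 1 and 1 counts with DMSO and 47, 52 and 66 with AZD4573. It was nearly absent from the DMSO libraries and present in every AZD4573 library. Scaled by the library totals, the ratio was 102, with a 95% counting interval from 27.9 to 852. This gene reached the sum of 120 counts through the AZD4573 libraries alone, and 34.7% of its exon bases are shared with another gene.

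With TMM the falls were fewer and smaller than the rises, while with mitochondrial scaling falls outnumbered rises (57 against 36). LINC01529 (ENSG00000225872), on chromosome 19 from 35785697 to 35797935 and now annotated as the transcribed pseudogene TEX14BP, was at 2.01, 3.45 and 3.17 CPM with DMSO and at 0.461, 0.505 and 0.266 CPM with AZD4573. All AZD4573 libraries lay below all DMSO libraries, and the fall was 6.54-fold (log2 fold change -2.71, standard error 0.27, adjusted p = 7.2e-07). Of its exon bases, 4.51% are shared with ARHGAP33 on the opposite strand, which rose (log2 fold change 1.35).

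LINC01882 (ENSG00000260302), on chromosome 18 from 12739490 to 12776140, was at 5.67, 5.50 and 5.41 CPM with DMSO and at 1.77, 1.13 and 1.19 CPM with AZD4573. The groups were clearly apart, and the fall was 3.81-fold (log2 fold change -1.93, standard error 0.157, adjusted p = 9.8e-08). It lies 9.34 kb downstream of PTPN2 on the same strand, the gene of a phosphatase that dampens JAK-STAT and T-cell receptor signalling. PTPN2 fell as well, from 40.9 ± 0.632 to 14.7 ± 1.49 CPM (SD, n = 3 each), a log2 fold change of -1.37.

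LINC00680 (ENSG00000215190, chromosome 6), whose gene model has been replaced, was at 19.9, 18.2 and 19.7 CPM with DMSO and at 5.76, 5.37 and 4.89 CPM with AZD4573. The 181 exon bases it has in GENCODE all lie in ENSG00000283352 on the same strand, which had a log2 fold change of 2.0. LINC01291 (ENSG00000204792, chromosome 2) was at 12.5, 14.2 and 12.7 CPM with DMSO and at 5.03, 3.68 and 2.99 CPM with AZD4573. These were among the more abundant members, their groups did not overlap, and they fell 3.36-fold (LINC00680, adjusted p = 5.4e-10) and 3.15-fold (LINC01291, adjusted p = 1.3e-07).

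LINC02693 (ENSG00000212719, chromosome 17) was at 17.1, 16.9 and 16.9 CPM with DMSO and at 7.20, 5.70 and 5.31 CPM with AZD4573, a fall of 2.61-fold (adjusted p = 2.2e-08). LINC00624 (ENSG00000278811, chromosome 1) was at 1.08, 1.18 and 1.03 CPM with DMSO and at 0.326, 0.269 and 0.486 CPM with AZD4573, a fall of 2.81-fold (adjusted p = 0.00027). In both, every AZD4573 library was below every DMSO library. A few bases of LINC00624 exons (3.77%) are shared with other genes, among them the chromatin remodeler CHD1L on the opposite strand.

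LINC01234 (ENSG00000249550), which has been described as oncogenic in several carcinomas, lies on chromosome 12 from 113583886 to 113773726. It was at 2.55, 2.7 and 2.32 CPM with DMSO and at 0.806, 1.13 and 0.862 CPM with AZD4573. The groups did not overlap, and the fall was 2.51-fold (log2 fold change -1.33, standard error 0.183, adjusted p = 1.8e-05). LINC00526 (ENSG00000264575) is a gene of 1 exon on chromosome 18 from 5236724 to 5238598, and 41.2% of its exon bases are shared with other genes, mainly LINC00667 on the opposite strand. It was at 3.68, 3.31 and 3.63 CPM with DMSO and at 1.65, 1.58 and 1.41 CPM with AZD4573, again without overlap, a fall of 2.13-fold (log2 fold change -1.09, adjusted p = 8.6e-06). LINC00667 was at 37.2 ± 1.17 and 36.1 ± 0.377 CPM (SD, n = 3 each), with a log2 fold change of 0.06 and of -0.68 with mitochondrial scaling.

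The promoters of LINC01234 and LINC00526 are shown as the largest falls with a RefSeq start within 1 kb of the start in GENCODE. They lie at chr12:113773634-113773933 and chr18:5237980-5238279, both on the minus strand of GRCh38.p14. The RefSeq start lies 43 bases from the start in GENCODE for LINC01234 and 569 bases for LINC00526. Capitals mark CCAAT, on either strand, in the first sequence and GGGCGG in the second. The window of LINC00526 lies inside its annotated exon, in the stretch it shares with LINC00667.
LINC01234: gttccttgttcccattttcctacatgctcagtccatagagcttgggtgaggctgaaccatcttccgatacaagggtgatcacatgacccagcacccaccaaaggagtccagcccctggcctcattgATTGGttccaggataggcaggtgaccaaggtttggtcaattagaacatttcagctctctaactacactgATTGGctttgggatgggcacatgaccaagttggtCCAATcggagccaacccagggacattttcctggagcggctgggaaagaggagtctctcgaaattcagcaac
LINC00526: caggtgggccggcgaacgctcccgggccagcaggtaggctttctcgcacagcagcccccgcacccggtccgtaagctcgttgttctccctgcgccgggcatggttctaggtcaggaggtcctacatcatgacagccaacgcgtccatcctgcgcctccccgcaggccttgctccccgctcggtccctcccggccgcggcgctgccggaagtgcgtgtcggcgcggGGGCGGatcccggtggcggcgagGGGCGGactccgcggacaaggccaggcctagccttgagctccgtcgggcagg

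The remaining named falls were below 2-fold. LINC00892 (ENSG00000233093), a gene 5.72 kb from CD40LG on chromosome X, was at 1.72, 2.47 and 1.94 CPM with DMSO and at 0.998, 1.03 and 1.11 CPM with AZD4573, a fall of 1.81-fold (adjusted p = 0.00107). CD40LG, the T-cell ligand of CD40, moved the other way, from 0.18 ± 0.0349 to 0.639 ± 0.112 CPM (SD, n = 3 each), which is 1.93 on the log2 scale (adjusted p = 0.000241). LINC00920 (ENSG00000246898, chromosome 16) was at 3.02, 2.84 and 3.36 CPM with DMSO and at 1.77, 1.26 and 1.87 CPM with AZD4573, a fall of 1.75-fold (adjusted p = 0.00063). In LINC00892 and LINC00920 the groups did not overlap. With mitochondrial scaling, which lowers all values, the 10 named falls had log2 fold changes from -1.54 to -3.45.

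Lists of LINC RNAs known from other settings were read against these calls. Among all members 40.9% rose and 11.3% fell, and among all genes tested 22.7% and 23.7%. Of 13 names known from T or NK cells, 7 were members. LINC00892 and LINC02273 (log2 fold change -0.84, adjusted p = 0.0243) fell, and LINC00528, LINC00426 and LINC00649 rose. LINC00528 was at 2.21, 2.23 and 2.28 CPM with DMSO and at 6.81, 7.84 and 7.57 CPM with AZD4573, a rise of 3.56-fold without overlap. The rise of LINC00649 (log2 fold change 0.68) turned to -0.06 with mitochondrial scaling, and that of LINC00426 (0.77) shrank to 0.03. LINC02446 (0.25) and LINC01550 (0.61) were not called. The median over these 7 members was 0.61, beside 0.03 for all genes tested, and -0.13 with mitochondrial scaling. The fall of LINC02273 lost its call when DMSO library 1 was left out (log2 fold change -0.59, adjusted p = 0.135), and also without AZD4573 library 2 (-0.78, adjusted p = 0.0705) or AZD4573 library 3 (-0.82, adjusted p = 0.0617).

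Of 4 B-cell names, only LINC00926 (ENSG00000247982, chromosome 15) was a member, a transcript that marks B cells in single-cell atlases. It was at 13.3, 15.1 and 17.0 CPM with DMSO and at 38.0, 38.9 and 41.2 CPM with AZD4573, and the groups did not overlap. The rise was 2.80-fold (log2 fold change 1.49, standard error 0.0779, adjusted p = 1.4e-09), and 0.75 on the log2 scale with mitochondrial scaling. Over the same libraries the B-cell marker mRNA CD79A had a mean of 59.9 CPM with DMSO and 90.2 CPM with AZD4573, and CD79B of 5.87 and 3.33 CPM, while MS4A1 stayed at or below 0.329 CPM and PAX5 at or below 0.0392 CPM. The part of these markers in the rise was not tested. Of 3 myeloid or platelet names, none was a member, and both that were in the table had at most 11 counts in all libraries together.

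Of 23 widely expressed LINC RNAs, 20 were in the table and all 20 were members. Of these, 9 rose (45.0%), 2 fell (10.0%) and 9 were not called. Among all members 40.9% rose and 11.3% fell, and among all genes tested 22.7% and 23.7%. The median log2 fold change of the 20 listed members was 0.42, and -0.32 with mitochondrial scaling. The 2 that fell were LINC00294 (-0.74, adjusted p = 8.3e-06) and LINC00265 (-0.68, adjusted p = 1.9e-05). Beside LINC00641, LINC01588 and LINC00174, the rises were LINC00665, LINC01355, LINC02035, LINC01089, LINC00342 and LINC00467. LINC00665, reported to encode a short peptide, rose from 0.101 ± 0.00297 to 0.699 ± 0.0336 CPM (SD, n = 3 each), and LINC01355 from 1.25 ± 0.359 to 4.50 ± 0.436 CPM. LINC01089, a transcript repressed by EGF, was at 5.64, 6.15 and 7.40 CPM with DMSO and at 14.2, 17.0 and 17.4 CPM with AZD4573. Its groups did not overlap, and the rise was 2.73-fold (adjusted p = 4.4e-08), but 60.6% of its exon bases are shared with other genes. Among them are ENSG00000274292 on the opposite strand (log2 fold change 1.34) and RHOF on the same strand (-0.31). LINC00467, also reported to encode a short peptide, rose from 8.36 ± 0.547 to 16.1 ± 0.201 CPM (log2 fold change 1.05). TRAF5, an adaptor of TNF receptors that ends 7.79 kb before LINC00467, fell (log2 fold change -1.52). All 9 rises of this list stayed above 0 with mitochondrial scaling, from 0.31 for LINC00467 to 2.34 for LINC00641.

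Among the 9 widely expressed members that were not called, values lay between -0.28 (LINC01128) and 0.44 (LINC01003) on the log2 scale. LINC01128 was at 44.5, 46.1 and 46.9 CPM with DMSO and at 38.1, 34.5 and 33.2 CPM with AZD4573. Its AZD4573 libraries were all lower (adjusted p = 0.0005), by less than 1.5-fold. LINC01278, LINC01184 and LINC00667 had log2 fold changes of -0.03, 0.02 and 0.06 with overlapping groups, and -0.77, -0.72 and -0.68 with mitochondrial scaling.

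Of 10 LINC RNAs linked to cancer or signalling responses, 3 were members, and LINC00173, LINC00324 and LINC01215 rose. Rises made up 40.9% of all members and 22.7% of all genes tested. LINC00173, a transcript of developing granulocytes, was at 0.0261, 0.313 and 0.283 CPM with DMSO and at 0.825, 1.11 and 0.799 CPM with AZD4573. DMSO library 1 was the lowest, the groups did not overlap, and the rise was 4.77-fold (adjusted p = 0.00111). LINC00324 had a log2 fold change of 1.08 (adjusted p = 0.00432, 0.34 with mitochondrial scaling). The rise of LINC01215 (0.64, adjusted p = 1.7e-07) turned to -0.10 with mitochondrial scaling.

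**Figure D4:**
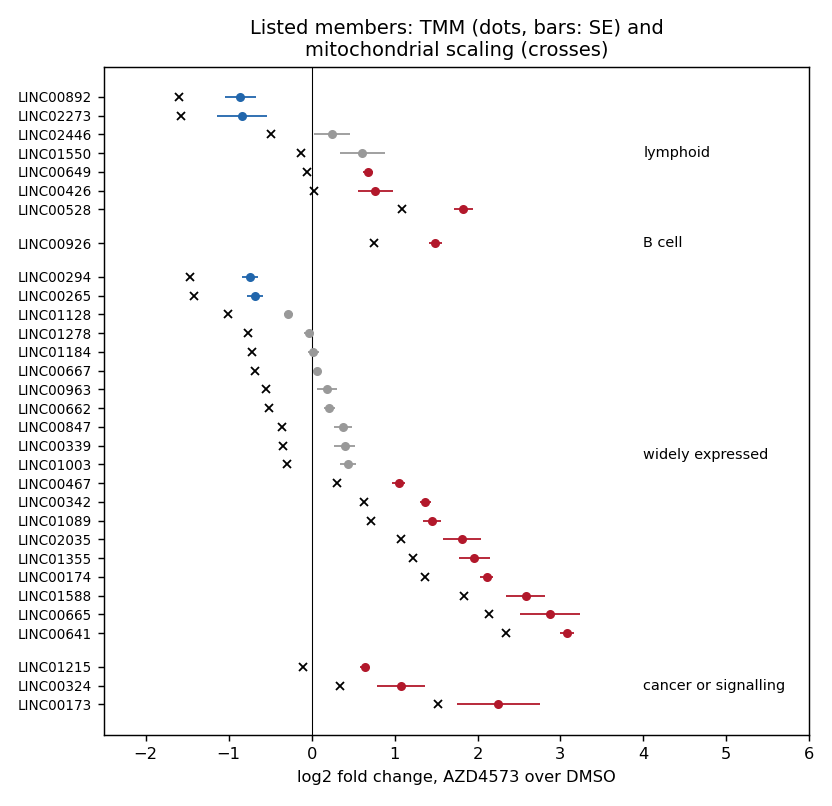
Log2 fold change (AZD4573 over DMSO) of the 31 members that are in a list, with TMM scaling (dots, bars for the standard error, blue for lower, red for higher and grey for not called) and with mitochondrial scaling (crosses). The crosses lie to the left of the dots throughout, as this scaling lowers all values. LINC00649 and LINC01215 rise with TMM and lie at -0.06 and -0.10 with mitochondrial scaling, while LINC00641 stays at 2.34.

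Per length, the members at the highest level were LINC01215 and LINC01963. LINC01215 was at 8.65 ± 0.221 CPM per kilobase of exon with DMSO and 12.6 ± 0.288 with AZD4573 (SD, n = 3 each). LINC01963 was at 7.34 ± 0.329 and 13 ± 1.14 CPM per kilobase. Their order thus differed between the groups, and the values with AZD4573 lay within the spread of LINC01963. LINC00926 (4.12 ± 0.501 and 10.7 ± 0.449), LINC01003 (5.14 ± 0.397 and 6.50 ± 0.626), LINC01163 (4.74 ± 0.481 and 6.27 ± 0.455) and LINC00623 (5.04 ± 0.0972 and 4.95 ± 0.184) followed over all 6 libraries. With DMSO, LINC01003, LINC00623 and LINC01163 differed by less than their spread. LINC00641, at 1.03 ± 0.153 CPM per kilobase with DMSO, reached 8.09 ± 0.32 with AZD4573. LINC00667, LINC02363 and LINC00342 completed the 10 highest. Of these 10 members, LINC01215, LINC01963, LINC00926, LINC00641, LINC02363 and LINC00342 rose, and no member of the 10 fell. Of all genes tested, 22.7% rose and 23.7% fell. The ranking used the AZD4573 libraries too, so a rise itself helps a member into these 10. The calls among them therefore do not tell how level and direction go together. With mitochondrial scaling LINC01215 turned to -0.10, and LINC01963 (0.93 with TMM) and LINC02363 (0.85) shrank to 0.19 and 0.11.

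The members differed in their place relative to other genes. For the counts that follow, 40.9% of all members rose and 11.3% fell, and 22.7% and 23.7% of all genes tested. Exons of 73 members share at least 1 base with another gene, and of these 30 rose and 11 fell, with a median log2 fold change of 0.52. Of 67 members apart from coding genes, 25 rose and 6 fell (median 0.49). Of 19 members that start within 10 kb after the end of a coding gene on the same strand, 11 rose and 2 fell (median 0.83, or 0.57 over 43 members when the limit was 50 kb). LINC01882 and LINC00920 were the 2 that fell. Of 9 members inside a coding gene, 6 rose and none fell (median 0.88), and of 10 divergent from a coding gene, 3 rose and 1 fell (median 0.48). The 8 members with a replaced model had a median of 0.08, with 1 rise and 1 fall. With mitochondrial scaling the medians of these classes were -0.22, -0.25, 0.11, 0.15, -0.26 and -0.66 in the order given. The classes were not tested against each other. Among the 99 members that share no exon base and no stretch of at least 200 bases at 98% identity with another gene, 43 rose and 9 fell, with a median of 0.57.

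Beside LINC01126, the divergent members that rose were LINC01137 and LINC00235, named here after their values were seen. LINC01137, now ZC3H12A-DT, lies 0.148 kb from ZC3H12A, the gene of an RNase that degrades inflammatory mRNAs. It was at 2.06, 1.42 and 1.98 CPM with DMSO and at 5.14, 5.28 and 5.77 CPM with AZD4573. The groups did not overlap (log2 fold change 1.67, adjusted p = 2.7e-07), and ZC3H12A also rose (0.66). The divergent member that fell, LINC01560 (log2 fold change -0.81, adjusted p = 0.0237), lies 0.349 kb from the zinc finger gene ZNF41, which fell too (-1.31). The fall of LINC01560 lost its call without DMSO library 1, DMSO library 2 or AZD4573 library 1, with an adjusted p of up to 0.0752.

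By exon number, 29 of 49 members with 2 to 3 exons rose and 4 fell (median 0.80). Of 107 members with more exons, 37 rose and 12 fell (median 0.41), and of 22 with 1 exon, 9 rose and 4 fell (median 0.75). With mitochondrial scaling these medians were 0.06, -0.33 and 0.01. The 93 members with the lower mean CPM had a median of 0.73 (43 rose, 7 fell) and the 93 with the higher mean CPM a median of 0.31 (33 rose, 14 fell), or -0.01 and -0.43 with mitochondrial scaling. Of all members 40.9% rose and 11.3% fell, and of all genes tested 22.7% and 23.7%. The mean CPM used the AZD4573 libraries too, and a member with few DMSO counts could enter the set through a rise. The calls among the lower and the higher 93 therefore do not tell how level and direction go together. Exon number, level and position were not separated from each other.

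Each member was set beside its nearest tested protein-coding gene. The log2 fold changes of both had the same sign in 77 of 186 pairs (41.4%), and across the pairs Pearson's r was 0.0152 and Spearman's rho 0.0562, as a description in which both values come from the same libraries. Within the position classes, r was 0.494 and rho 0.794 over the 10 divergent members, 5 of which had the sign of their neighbour. For the 9 members inside a coding gene r was 0.6 and rho 0.533, and for members downstream of a coding gene, apart from one or with a shared exon r lay between -0.0356 and 0.148. No class was tested, and the first values rest on few pairs. The neighbour of the 76 members that rose was higher in 10, lower in 18 and not called in 48 cases. The neighbour of the 21 members that fell was lower in 9, higher in 4 and not called in 8 cases. Of the protein-coding genes that are not members, 18.2% were called higher and 27.2% lower. PTPN2 beside LINC01882, ZBTB14 beside LINC00526 (-1.20) and RALA beside LINC00265 (-0.80) fell with the member. So did TCP11L1 (-0.70), whose body overlaps LINC00294. ARHGAP33, which overlaps LINC01529, and CD40LG beside LINC00892 rose where the member fell. The neighbours as a group had a median of -0.15, while 136 of the 186 members lay above 0. The share of pairs with the same sign depends on this as well.

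**Figure D5:**
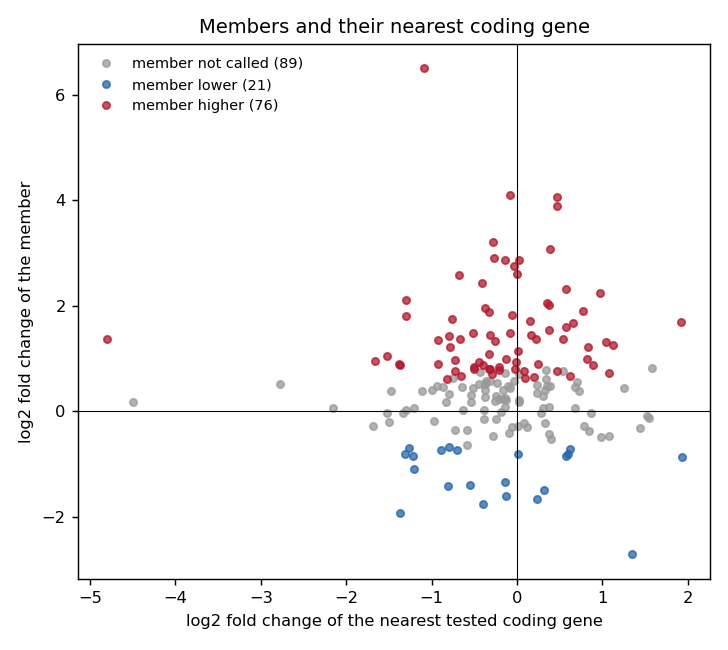
Log2 fold change of each member (y axis) against that of its nearest tested protein-coding gene (x axis), both AZD4573 over DMSO with TMM scaling, with a point per member. The 76 members that rose spread over neighbours on both sides of 0, and Pearson's r over all 186 pairs is 0.0152.

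Within 100 kb of each other lay 11 pairs of members, named here after their values were seen. In 3 of them both rose, LINC01237 with LINC01238 (1.55 and 2.01), LINC02363 with LINC02362 (0.85 and 0.80) and LINC00242 with LINC00574. The call of LINC02362 was lost without DMSO library 1, DMSO library 3 or AZD4573 library 3, with an adjusted p of up to 0.0854. In 1 pair both members were called and in opposite directions. LINC01409 was at 0.823, 0.881 and 1.05 CPM with DMSO and at 1.86, 2.20 and 1.60 CPM with AZD4573, a rise of 1.14 on the log2 scale (0.41 with mitochondrial scaling). LINC00115, 14.2 kb further along chromosome 1, was at 0.679, 1.11 and 0.992 CPM with DMSO and at 0.441, 0.521 and 0.502 CPM with AZD4573 (log2 fold change -0.81, adjusted p = 0.0157). This fall lost its call when DMSO library 2 was left out (-0.67, adjusted p = 0.0743). Neither gene had overlapping groups. LINC01126, which rose 9.26-fold, lies 9.96 kb from LINC02580, which had a log2 fold change of -0.46 (adjusted p = 0.198).

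For 129 members a promoter of 300 bases was found in RefSeq (GRCh38.p14), and 4 motifs were searched on both strands. The TATA box core TATAAA was in 14.0% of these promoters and in 12.0% of all 27305 promoters of the table. CCAAT was in 40.3% and 35.7%, the GC box core GGGCGG in 45.0% and 44.6%, and AGATAA, a sequence GATA factors bind, in 12.4% and 10.5%. The median ratio of observed to expected CpG was 0.537 in the members and 0.58 in all promoters. The promoters of members thus held these letters about as often as promoters in general. TATAAA was in 0 of 13 promoters of members that fell, 8 of 56 of members that rose and 10 of 60 of members not called. AGATAA was in 4 of 13, 6 of 56 and 6 of 60. A match of letters is not a bound site, and these shares were not tested.

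At the limit of the rule, LINC02728 (123 counts in all) and LINC01816 (126) were the members just inside. LINC02728 had 16, 20 and 17 counts with DMSO and 30, 27 and 13 with AZD4573, so its groups overlapped. LINC01816 had 21, 18 and 19 counts with DMSO and 19, 27 and 22 with AZD4573. Just outside were LINC01635 (119 counts), with 23, 20 and 24 counts with DMSO and 10, 23 and 19 with AZD4573, and LINC02348 (117 counts). LINC02348 had 0 counts in every DMSO library and 34, 48 and 35 counts in the AZD4573 libraries.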

How the data were processed

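The labels describe RNA-seq of 6 H9 samples, 3 per group. According to the supplemental methods and the submitters' processing notes, the authors used cutadapt 2.3 for trimming, STAR 2.7.8a for alignment to the Ensembl GRCh38 genome and RSEM 1.3.3 to estimate the deposited expected counts per gene. The Ensembl release is not given in the sources used here. The deposited values are whole numbers without normalization, for 61546 entries, 5 of them reporter sequences with 0 counts.

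Genes passing edgeR's filter (minimum count 10) were normalized by TMM and tested across the whole table with edgeR 4.0.16 in R 4.3.3 (quasi-likelihood test, Benjamini-Hochberg adjustment), without a replicate block. CPM values were scaled by library totals. The procedure was tested on simulated data. Pairs of libraries within a group differed beyond sampling noise (ratios of chi-square to its degrees of freedom from 5.29 to 19.4), so each was counted as a sample.

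Of the 61541 IDs, 61369 were found in GENCODE release 44, which gave positions and exons. Named were the 10 members with the highest CPM per kilobase, the 10 largest rises and falls (call, at least 1 CPM in the higher group, no overlap), the listed members and those at the limit of 120 counts. The members and lists were chosen with earlier results of these data known. Alternatives were other scalings, filters and thresholds, DESeq2 1.42.0, a replicate block and each library left out. A marker gene of the lists is not reported here.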

Additional observations from a re-analysis of the deposited data

How the results depend on the processing

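The counts of members that fell and rose (21 and 76 with TMM) depended most on the scaling. With mitochondrial scaling they were 57 and 36, and the median log2 fold change turned from 0.50 to -0.23. A fold change of at least 2 left 10 falls and 48 rises, and the share of all genes tested at this size was not counted. Every tested gene of the name pattern gave 24 falls and 118 rises of 258, where more genes were counted. Members with no shared exon gave 9 falls and 45 rises of 105, and members that in addition shared no sequence elsewhere, an alternative chosen after seeing the data, gave 9 and 43 of 99. In these 2 cases fewer members were counted. With limits of 5 kb and 50 kb the median of downstream members was 0.57 in place of 0.83. With each library left out in turn, falls ranged from 18 to 21, rises from 73 to 79 and the median from 0.45 to 0.52. RLE factors, DESeq2, no filter, library size alone and the other alternatives kept both counts within 1.5 times.

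The numbers of the libraries do not pair them (correlations of deviations between -0.0208 and 0.0417), and a replicate block gave 21 falls and 74 rises.

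Of 659 values of 51 named members under alternatives, 624 kept the sign and the side of 0.05 on which the adjusted p lay. The fold change required for a call was not part of this count. LINC00467, for example, was counted as kept with mitochondrial scaling, where its log2 fold change went from 1.05 to 0.31. The sign turned with mitochondrial scaling for LINC00339 (-0.34), LINC00623 (-0.66), LINC00649 (-0.06), LINC00662 (-0.52), LINC00667 (-0.68), LINC00847 (-0.36), LINC00963 (-0.55), LINC01003 (-0.30), LINC01163 (-0.23), LINC01184 (-0.72), LINC01215 (-0.10), LINC01550 (-0.13) and LINC02446 (-0.49). Among these, LINC00649 and LINC01215 were called higher with TMM. With library size alone it turned for LINC00623 (-0.03), LINC00667 (-0.04) and LINC01184 (-0.09). LINC01184 also turned without a filter (-0.03) and with DMSO library 2 (-0.04) or AZD4573 library 1 (0.00) left out (range over all left-out libraries -0.04 to 0.05), and LINC01278 with at least 10 counts in every library (0.01). None of these last 4 genes was called. Members below 1 CPM rest on few reads, and small changes in them were not detectable at this depth.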

Other observations

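Below the sum of 120 counts, 72 further genes of the same name pattern passed the filter on low counts. Of these, 42 (58.3%) were higher and 3 (4.17%) lower, where 22.7% and 23.7% of all genes tested were. The 72 genes had a median log2 fold change of 1.38, beside 0.03 for all genes tested. With mitochondrial scaling these medians were 0.65 and -0.71. A gene with so few counts passes the filter mainly where it is high in at least 1 group, so these numbers are a description of the genes that passed. LINC02348 is an example, with 0 counts in each DMSO library and 34 to 48 counts in each AZD4573 library. Of the 2155 genes of the pattern, 1279 had no count in any library.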
